A study of Homo sapiens with 8 samples.

Results

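The mRNAs of the small ribosomal subunit were followed through 8 libraries of human bronchial epithelial cells. The members were 27 listed genes for proteins of the cytosolic small subunit, out of 58735 gene IDs in the files, and each gene's expected count was the sum over its transcripts, with pseudogenes kept apart. All 27 passed the filter on low counts, among 18242 genes tested. The list names some of the subunit's proteins and not all of them.

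BEAS-2B, an immortalized line from normal human bronchial epithelium, was grown at an air-liquid interface and exposed for 2 h either to humidified clean air or to air with 1 ppm formaldehyde, and both then recovered for 6 h in fresh medium. Total RNA was depleted of ribosomal RNA and split: 1 portion was sequenced as input (CA_IN for clean air, FA_IN for formaldehyde), and the other was incubated with an antibody against 8-oxo-7,8-dihydroguanine (8-oxoG), an oxidized form of guanine, and the bound RNA was sequenced as pull-down (CA_IP and FA_IP). Each of the 4 groups held 2 libraries, numbered 1 and 3. All groups shared the line and the medium, 1 cell line stands for bronchial epithelium, and the clone of the antibody is named differently in different labels.

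The small subunit of the ribosome binds mRNA, scans for the start codon and reads codons against tRNA. Its proteins are made in balance with the ribosomal RNA, and their mRNAs are short, abundant and mostly begin with a cytosine followed by a run of pyrimidines, the 5′ terminal oligopyrimidine (TOP) motif. TOP mRNAs are known to be stored or translated together under control of the kinase mTOR and the cap-binding protein LARP1.

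The transcript starts below show the motif, which most but not all of the members had, with 5 lines for members lower in the pull-down and 5 for members that were not. RefSeq start sites (GRCh38.p14) were found for 24 of the 27, with several starts for RPS19 and RPS27A, and RPS2, RPS15A and RPS20 were not in the table. Each line gives 10 bases before the start and 20 bases from it, 5′ to 3′, with the pyrimidine run from the start in capitals where it begins with C and is at least 5 bases long.
RPS21, chr20:62387093-62387122, plus strand: ctagctgcttCCTTTCTCTCTCgcgcgcgg
RPS13, chr11:17077648-17077677, minus strand: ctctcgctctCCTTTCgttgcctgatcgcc
RPS24, chr10:78033853-78033882, plus strand: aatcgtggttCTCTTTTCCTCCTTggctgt
RPS29, chr14:49598691-49598720, minus strand: agcgcgcagctggcagcggtggttgtttct
RPS26, chr12:56041908-56041937, plus strand: acataacctcgattttcttccgccatccgg
RPS6, chr9:19380217-19380246, minus strand: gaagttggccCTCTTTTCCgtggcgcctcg
RPS3, chr11:75399508-75399537, plus strand: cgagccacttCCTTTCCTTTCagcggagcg
RPS9, chr19:54200848-54200877, plus strand: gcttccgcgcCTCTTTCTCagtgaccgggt
RPS19, chr19:41860245-41860274, plus strand: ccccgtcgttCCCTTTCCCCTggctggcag
RPSA, chr3:39406710-39406739, plus strand: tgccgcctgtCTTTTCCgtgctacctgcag
RPS21, RPS13 and RPS24 carried the run, RPS29 and RPS26 did not at the listed start, and the last 5 lines all carried it. RPS15, not printed and not called lower, did not carry it at its listed start. A C followed by C or T up to at least 5 bases, read on the gene's strand only, was found at a listed start of 19 of the 24 members (79.2%), against 1404 of the 27305 genes in the RefSeq table (5.14%). The run was 6 to 14 bases long in the members that had it. It was present in 8 of 12 members lower in the pull-down and in 11 of 12 of the others, so members with and without the run stood on both sides. The letters at a listed start say nothing of the start used in these cells.

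The libraries held 26152651 to 45144392 expected counts in the inputs and 16883500 to 23658012 in the pull-downs. Of those counts, protein-coding genes took 70.4% to 73.0% in the inputs and 79.4% to 81.6% in the pull-downs, genes of the mitochondrial chromosome took 13.5% to 14.8% and 9.60% to 11.3%, and small nuclear, nucleolar and Cajal body RNAs took 2.94% to 3.49% and 0.917% to 1.36%. All 7 epithelial markers were measured in the inputs, from CDH1 at 8.82 to 11.2 TPM and EPCAM at 10.9 to 13.4 TPM up to KRT7 at 432 to 497 TPM. Of the ciliated or secretory markers, TUBB4B was at 77.6 to 95.7 TPM in the inputs and the others at most at 0.07 TPM. The mesenchymal markers VIM, at 173 to 229 TPM, and FN1, at 50.9 to 62.1 TPM, were also measured in the inputs, where COL1A1 was at 0.92 to 1.3 TPM, COL1A2 at 0.05 to 0.09 TPM and DCN at most at 0.02 TPM, while the immune markers PTPRC, CD3E and LYZ had at most 8.83 expected counts in any input.

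The members together took a smaller share of the counts after pull-down within each treatment. They held 2.17% and 2.16% of the counts in the CA_IN libraries and 2.29% and 2.33% in FA_IN, against 1.89% and 2.04% in CA_IP and 2.03% and 2.17% in FA_IP. The highest pull-down library, FA_IP 3, lay between the CA_IN libraries, so inputs and pull-downs overlapped when treatments were mixed but not within a treatment. The split within the family was wider than the total: the 13 members described below as lower in the pull-down went from 0.879% ± 2.18e-05 (SD, n = 2) in CA_IN to 0.535% ± 0.0381 in CA_IP, and the other 14 from 1.29% ± 0.008 to 1.43% ± 0.072. In formaldehyde, the 13 went from 0.935% ± 0.0104 to 0.589% ± 0.0244 and the other 14 from 1.38% ± 0.022 to 1.51% ± 0.075. These splits follow from how the 13 were called and carry no test. Counted over the deposited TPM, a unit that corrects for transcript length and sums to the same total in every library, the order turned: the members took 2.02% to 2.31% in the inputs and 2.62% to 3.001% in the pull-downs, while the shares of small nuclear, nucleolar and Cajal body RNAs and of the mitochondrial chromosome differed as given above, and their part in this was not tested.

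Per length, the members spanned a 9.41-fold range in CA_IN. RPS23, which sits at the decoding centre, had the highest level, 1486 and 1533 TPM in CA_IN and 1465 and 1763 TPM in FA_IN. RPS27, a zinc finger protein on the surface of the subunit, had 1467 and 1473 TPM in CA_IN and 1445 and 1708 TPM in FA_IN. RPS18, a protein of the head, had 1500 and 1434 TPM in CA_IN and 1429 and 1569 TPM in FA_IN. In CA_IN, RPS18 overlapped both of the others while RPS23 lay above RPS27, and in FA_IN all 3 overlapped. RPS26 had 296 and 270 TPM in CA_IN and RPS28 had 251 and 240 TPM, and the 2 members did not overlap there. RPS16 was last, at 201 and 120 TPM in CA_IN and 135 and 166 TPM in FA_IN, and its 2 CA_IN libraries differed more than its treatments did. By mean TPM in CA_IN, every member was among the 190 highest of 19831 protein-coding genes. Per full transcript length instead of the effective length that RSEM subtracts fragments from, RPS29 moved from rank 5 to rank 14 among the members and RPS21 from rank 6 to rank 17, so the place of the shortest mRNAs rested on that correction.

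**Figure D1:**
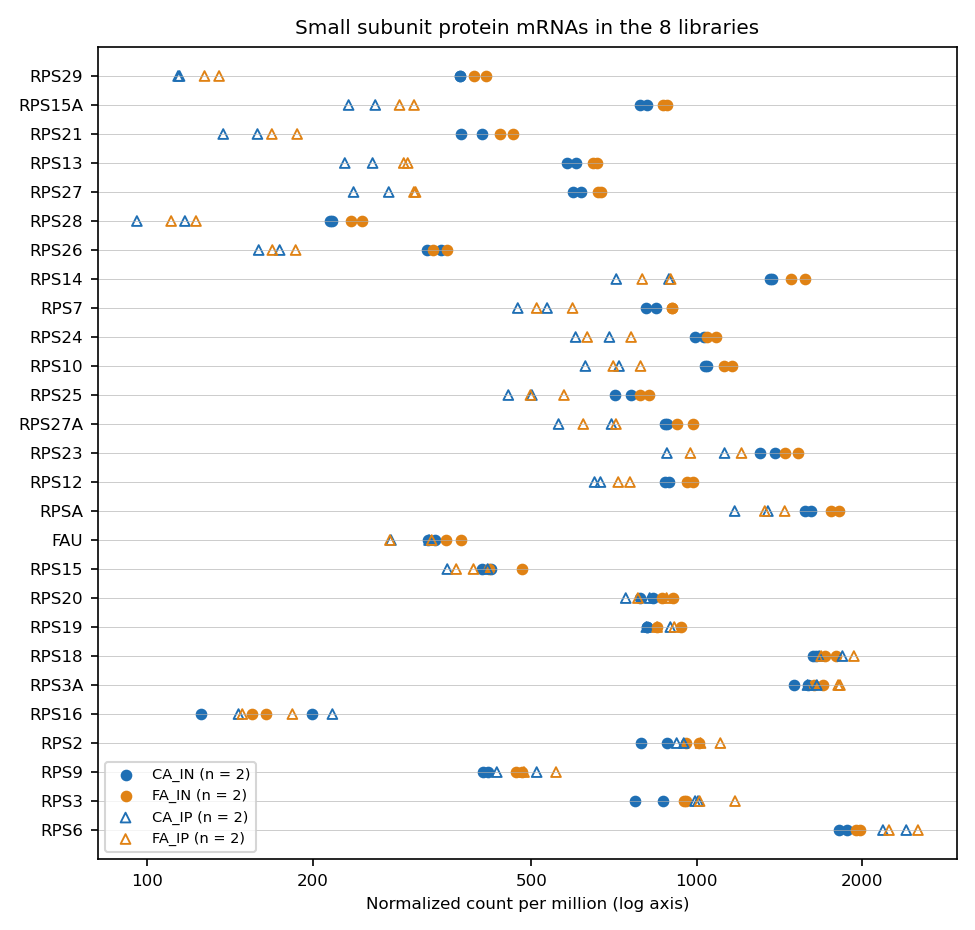
Normalized CPM (horizontal log axis) of the 27 members, 1 row each, ordered by the mean pull-down difference; filled circles are input libraries, open triangles pull-down libraries, blue clean air and orange formaldehyde, 2 libraries a group. Triangles lie to the left of circles in the upper rows, down to 114 against 370 for RPS29, and the order is the other way in the bottom row, RPS6.

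The comparison of pull-down with input asked which mRNAs were more or less frequent in the pull-down than in the input. None of the 8 libraries was a pull-down without the 8-oxoG antibody, so binding to the antibody and to the beads cannot be told apart. Of the 27 members, 13 were lower in CA_IP than in CA_IN and the same 13 were lower in FA_IP than in FA_IN (edgeR's quasi-likelihood test, Benjamini-Hochberg adjusted p under 0.05 over all genes). Over all genes tested, 1.77% were called lower in clean air and 1.47% in formaldehyde. Many of those genes were measured less well: standard errors in clean air were 0.07 to 0.23 for the members and 0.07 to 3.80 over all genes. The share called among genes as abundant as the members was not counted. None of the members was called higher in this fit, which had no block, where 0.148% and 0.0329% of all genes were. DESeq2, also without a block, called none higher either. With the RNA pool as a block, which pairs input and pull-down, edgeR called RPS6 higher in both treatments and RPS3 in clean air. That block called 11.6% of all genes higher in clean air and 5.45% in formaldehyde. Without a block, 18 members in clean air and 19 in formaldehyde had an unadjusted edgeR p under 0.05 in either direction. Over all genes tested, 12.6% in clean air and 9.10% in formaldehyde did. With 1 library left out the count fell as low as 7, in clean air without CA_IP replicate 1 and in formaldehyde without FA_IN replicate 1, FA_IN replicate 3 or FA_IP replicate 1, and it was 8 in clean air without CA_IN replicate 3. The median log2 fold change of the members was -0.43 in clean air and -0.45 in formaldehyde, beside 0.02 and 0.00 over all genes. The called members were 1.34 to 3.25 times lower in clean air and 1.32 to 3.07 times lower in formaldehyde. Within each pool of RNA, 17 members were below 0 in all 4 ratios of pull-down to input and 5 were above 0 in all 4.

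**Figure D2:**
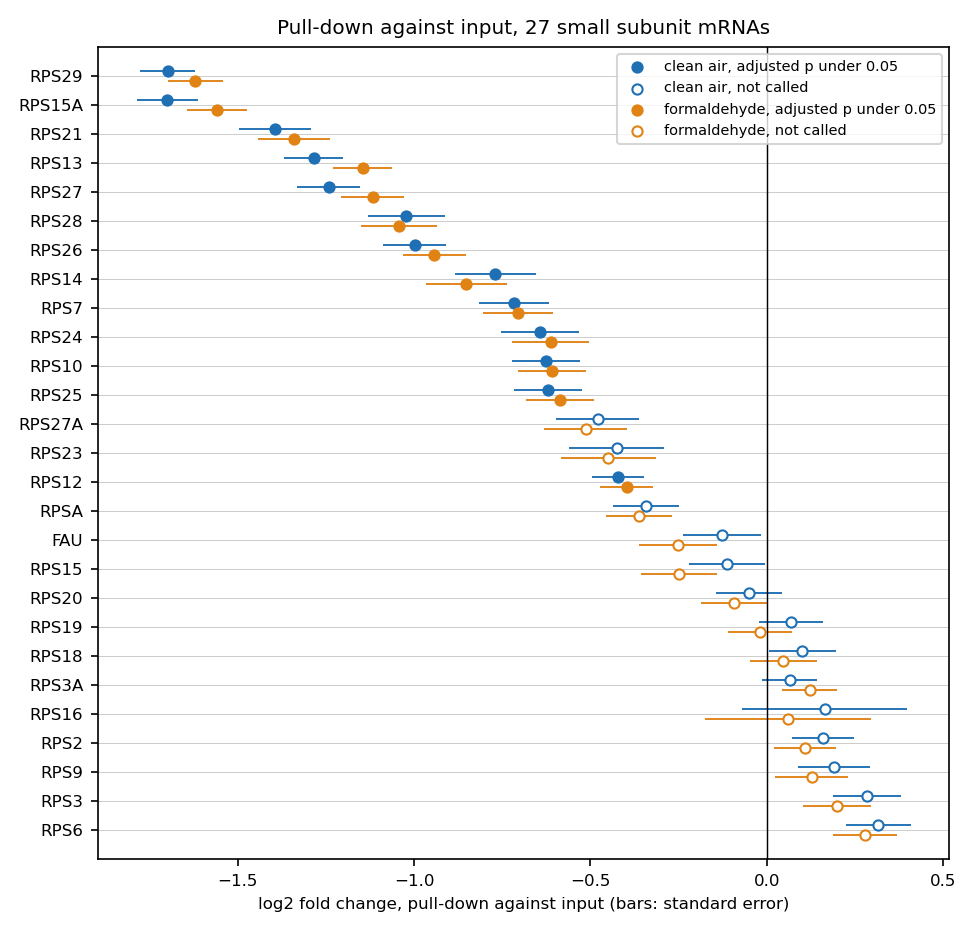
Log2 fold change of pull-down against input (horizontal axis) for each member, with bars of 1 standard error, in clean air (blue) and formaldehyde (orange); filled points passed an adjusted p of 0.05. Values run from -1.70 for RPS15A and RPS29 to 0.32 for RPS6, with the 2 treatments beside each other in every row.

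The lowest ratios belonged to RPS29, RPS15A and RPS21. RPS29, a zinc-binding protein of the head close to the mRNA path (chr14:49570984-49599164, minus strand), had 370 and 371 normalized CPM (counts scaled to a common library size by TMM factors) in CA_IN, 113.8 and 114.5 in CA_IP, 413 and 393 in FA_IN, and 127 and 135 in FA_IP. Every pull-down library lay far below every input library, with no overlap. Its log2 fold change was -1.70 (SE 0.08, edgeR adjusted p = 5.47e-05) in clean air and -1.62 (SE 0.08, adjusted p = 9.08e-05) in formaldehyde.

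RPS15A, a protein of the body (chr16:18781295-18790383, minus strand), had 788 and 812 normalized CPM in CA_IN, 232 and 259.9 in CA_IP, 866 and 882 in FA_IN, and 306 and 288 in FA_IP. The groups did not overlap in either treatment. The log2 fold change was -1.70 (SE 0.09, edgeR adjusted p = 5.53e-05) in clean air and -1.56 (SE 0.09, adjusted p = 0.000138) in formaldehyde. RPS21, a small protein of the body (chr20:62387103-62388520, plus strand), had 406 and 373 in CA_IN, 137.5 and 159 in CA_IP, 463 and 438 in FA_IN, and 168.5 and 187 in FA_IP. It was 2.63 times lower in clean air and 2.53 times lower in formaldehyde (edgeR adjusted p = 0.000207 and 0.000348), again with no overlap.

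RPS13, RPS27, RPS28 and RPS26 followed, each 1.92 to 2.44 times lower. RPS26, which lines the mRNA exit channel and is mutated in Diamond-Blackfan anemia (chr12:56041351-56044697, plus strand), had 343 and 323 normalized CPM in CA_IN, 159.5 and 174 in CA_IP, 351 and 331.5 in FA_IN, and 169 and 186 in FA_IP. Its pull-down libraries all lay below its inputs. The log2 fold change was -0.998 (SE 0.09) in clean air and -0.94 (SE 0.09) in formaldehyde (edgeR adjusted p = 0.000505 and 0.000897). RPS27 had 595 and 617 in CA_IN, 237 and 275 in CA_IP, 662 and 669 in FA_IN, and 306 and 308 in FA_IP, also without overlap. RPS28, a small head protein, went from 217 and 215 in CA_IN to 95.7 and 117 in CA_IP, and from 246 and 234 in FA_IN to 111 and 123 in FA_IP.

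The remaining called members changed less. RPS14, RPS7, RPS24, RPS10, RPS25 and RPS12 were 1.32 to 1.80 times lower over both treatments in this fit of counts. By mean TPM they were instead higher in CA_IP than in CA_IN, at 1418 against 1345 for RPS14 and 1048 against 760 for RPS12. In formaldehyde the same held, except for RPS14. RPS29, RPS15A, RPS21, RPS13, RPS27, RPS28 and RPS26 were lower in the pull-down by mean TPM too, in both treatments. RPS24, another gene of Diamond-Blackfan anemia (chr10:78033760-78056813, plus strand), had 992 and 1030 normalized CPM in CA_IN, 602 and 693 in CA_IP, 1042 and 1084.5 in FA_IN, and 632 and 759 in FA_IP. No library crossed between input and pull-down, and the log2 fold changes were -0.64 (SE 0.11, edgeR adjusted p = 0.0193) and -0.61 (SE 0.11, adjusted p = 0.0294).

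RPS27A, RPS23 and RPSA had negative values that missed the threshold in this fit. RPS27A is made as a fusion with ubiquitin (chr2:55231903-55235853, plus strand). It had 873 and 883 normalized CPM in CA_IN, 560 and 699 in CA_IP, 922 and 982 in FA_IN, and 621 and 712.5 in FA_IP. The groups did not overlap, but the pull-down libraries were spread, and the log2 fold changes of -0.48 and -0.51 had an edgeR adjusted p of 0.0964 and 0.0986. RPS23, the member highest per length, had 1304 and 1389 normalized CPM in CA_IN, 882 and 1123 in CA_IP, 1449 and 1525 in FA_IN, and 973 and 1206 in FA_IP (edgeR adjusted p = 0.208 and 0.262). RPSA, a body protein also known as the laminin receptor precursor (chr3:39406716-39426255, plus strand), had 1576 and 1615 in CA_IN, 1172 and 1347 in CA_IP, 1811 and 1753 in FA_IN, and 1329 and 1445 in FA_IP (edgeR adjusted p = 0.137 and 0.16). With the RNA pool as a block, since input and pull-down were split from the same RNA, these 3 were called lower in both treatments, with an adjusted p of at most 0.000381.

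FAU, RPS19, RPS18, RPS16, RPS9, RPS3 and RPS6 were not called in the fit without a block. FAU is made as a fusion of a ubiquitin-like protein with the small subunit protein eS30 (chr11:65120630-65122177, minus strand). It had 334 and 325 normalized CPM in CA_IN, 278 and 326 in CA_IP, 372 and 349.6 in FA_IN, and 276 and 329 in FA_IP, so the clean air groups overlapped and the formaldehyde groups did not. Its log2 fold changes were -0.13 (SE 0.11) in clean air and -0.25 (SE 0.11) in formaldehyde, with edgeR adjusted p of 0.737 and 0.544. RPS19, the gene most often mutated in Diamond-Blackfan anemia (chr19:41860255-41872925, plus strand), had 812 in both CA_IN libraries, 809 and 895 in CA_IP, 935 and 845 in FA_IN, and 847 and 909.6 in FA_IP. Its groups overlapped, and its log2 fold changes were 0.07 (SE 0.09) and -0.02 (SE 0.09), with edgeR adjusted p of 0.841 and 0.995. RPS18 had 1646 and 1626 in CA_IN, 1669 and 1839.9 in CA_IP, 1788 and 1708.5 in FA_IN, and 1683 and 1931 in FA_IP, and its formaldehyde groups overlapped (edgeR adjusted p = 0.757 and 0.98).

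RPS16 was the most variable member, with a standard error of 0.234 in clean air and 0.235 in formaldehyde. It had 199.6 and 125 normalized CPM in CA_IN, 217 and 146.5 in CA_IP, 155 and 164 in FA_IN, and 149 and 184 in FA_IP. In clean air, input and pull-down of pool 1 were both high and those of pool 3 both low, so the spread lay between the pools. Its log2 fold change in clean air was 0.16 (edgeR adjusted p = 0.858), and within the pools it was 0.12 and 0.23. With the RNA pool as a block it was 0.17 (adjusted p = 0.0806). Without CA_IN replicate 3, in a fit without the block that leaves a pull-down without its input, it was -0.15.

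RPS6, RPS3 and RPS9 had the highest ratios. RPS6, the S6 kinase substrate whose phosphorylation reports on mTOR (chr9:19375715-19380236, minus strand), had 1811 and 1872 normalized CPM in CA_IN, 2180.5 and 2404 in CA_IP, 1946 and 1979 in FA_IN, and 2236 and 2525 in FA_IP. Each pull-down library lay above each input library. The log2 fold changes of 0.32 (SE 0.09) and 0.28 (SE 0.09) did not pass in this fit (edgeR adjusted p = 0.165 and 0.321), and with the RNA pool as a block they did (adjusted p = 0.000588 and 0.00303). RPS3, an RNA-binding protein at the mRNA entry site that also has DNA repair activity, had 868 and 773 in CA_IN, 1005 and 993 in CA_IP, 947 and 956 in FA_IN, and 1012 and 1173 in FA_IP. It had an adjusted p of 0.246 and 0.63 in edgeR, and of 0.00255 and 0.0526 with the block. RPS9, a body protein, had 409 and 417 in CA_IN, 432.5 and 511 in CA_IP, 481.5 and 469.5 in FA_IN, and 485 and 554 in FA_IP (edgeR adjusted p = 0.524 and 0.868).

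With the pool block, 16 members were called lower and 2 higher in clean air, and 18 lower and 1 higher in formaldehyde. The same block called 5.85% of all genes lower and 11.6% higher in clean air, and 4.6% and 5.45% in formaldehyde. The 16 were lower in both treatments, and FAU and RPS15 were added in formaldehyde only, with adjusted p of 0.0333 and 0.0388, while whether they differed between treatments was tested by the interaction given below.

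By position in the subunit, 5 of the 12 members of the head and beak and 8 of the 15 members of the body and platform were lower, in each treatment. The median log2 fold changes were -0.27 and -0.32 for the head and -0.64 and -0.61 for the body. RPS29 and RPS28 in the head and RPS15A and RPS21 in the body led their groups, and RPS3 in the head and RPS6 in the body had the highest ratio of theirs.

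The members were short, and short mRNAs in general had low ratios. The most abundant transcript of a member was 296 to 1326 nt long, with a median of 631 nt against 3001 nt over the 13835 protein-coding genes tested, and 25 of the 27 were under 1000 nt. Among protein-coding genes outside the list, the median log2 fold change in clean air was -1.07 under 400 nt (32 genes), -0.68 from 400 to 600 nt (152 genes), -0.15 from 600 to 800 nt (296 genes) and 0.01 from 800 to 1000 nt (396 genes), and from 1500 to 3000 nt it was 0.13 (4797 genes). In formaldehyde the same bins had -1.05, -0.67, -0.21, -0.01 and 0.10. The bins held the large subunit too, and without it the value from 400 to 600 nt was -0.64 in both treatments.

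In the same bins the members had a median of -1.39 under 400 nt (3 members), -0.43 from 400 to 600 nt (7), -0.45 from 600 to 800 nt (10) and 0.06 from 800 to 1000 nt (5) in clean air. All 3 members under 400 nt, RPS29, RPS21 and RPS27, were called lower, as were 3 of the 7 in the next bin, 5 of the 10 after it and 1 of the 5 from 800 to 1000 nt. The share of other genes called in each bin was not counted, so these counts do not set the members apart from other short mRNAs. RPS28 and RPSA, the 2 members from 1000 to 1500 nt, had a median of -0.68 in clean air and -0.70 in formaldehyde. Of these only RPS28 was called lower, and the 1212 other genes of that bin had medians of 0.11 and 0.08. Of the 27 members, 15 lay below the median of other genes of their length bin in clean air and 15 in formaldehyde. Across the 27 members, the mean log2 fold change had a Spearman correlation of 0.40 with length, a description over genes that share libraries. With the longest transcript that had a count in place of the most abundant one, it was 0.03. RPS28 was placed at 1326 nt because its annotated 1326 nt transcript received 68.4% of its count, and the 334 nt one 30.6%.

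Length left wide differences between members of like size. RPS15A, at 525 nt, had a log2 fold change of -1.70 in clean air, while RPS19, at 500 nt, had 0.07, RPS15, at 510 nt, -0.11 and RPS16, at 560 nt, 0.16. RPS13, at 646 nt, had -1.28, while RPS9, at 709 nt, had 0.19. These members were picked out after their values were seen.

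The guanine share of the transcript moved with the ratio, and its part in the result was not tested. It could be read for the most abundant transcript of 26 members, from GENCODE 44, and for 11 of those the transcript had the same length as in the files. It ran from 22.03% in RPS29 to 31.3% in RPS9, with a mean of 25.1% ± 2.13 (SD, 12 members) in those called lower and 27.6% ± 2.63 (SD, 14 members) in the others, against a median of 24.8% over protein-coding genes. Of the 6 members at 28% or more, namely FAU, RPS15, RPS19, RPS2, RPS9 and RPS3, none was called lower, against 5 of the 9 members below 25% and 7 of the 11 from 25% to 28%. How many other genes were called at these guanine shares was not counted. The median log2 fold change in clean air was 0.11 in those 6, -0.62 in the 9 and -0.63 in the 11. Among other protein-coding genes under 1000 nt, without the large subunit, the medians were 0.18 at 28% or more (338 genes), -0.17 from 25% to 28% (215 genes) and -0.42 below 25% (272 genes).

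Over the 26 members, the Spearman correlation of guanine share with the log2 fold change in clean air was 0.61, against 0.11 for cytosine, -0.21 for adenine and -0.46 for thymine. Over other protein-coding genes under 1000 nt it was 0.51 for guanine and 0.12 for cytosine. Over all 13579 other protein-coding genes, guanine and cytosine were closer, at 0.65 and 0.56, with -0.59 for adenine and -0.57 for thymine. These are correlations over genes of the same libraries, and the shares of the 4 bases add up to a whole, so none of them stands alone. RPS3A and RPS20 were exceptions, with guanine shares of 24.2% and 24.9% and log2 fold changes in clean air of 0.06 and -0.05, and RPS21 was another, with 27.7% and -1.39.

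**Figure D3:**
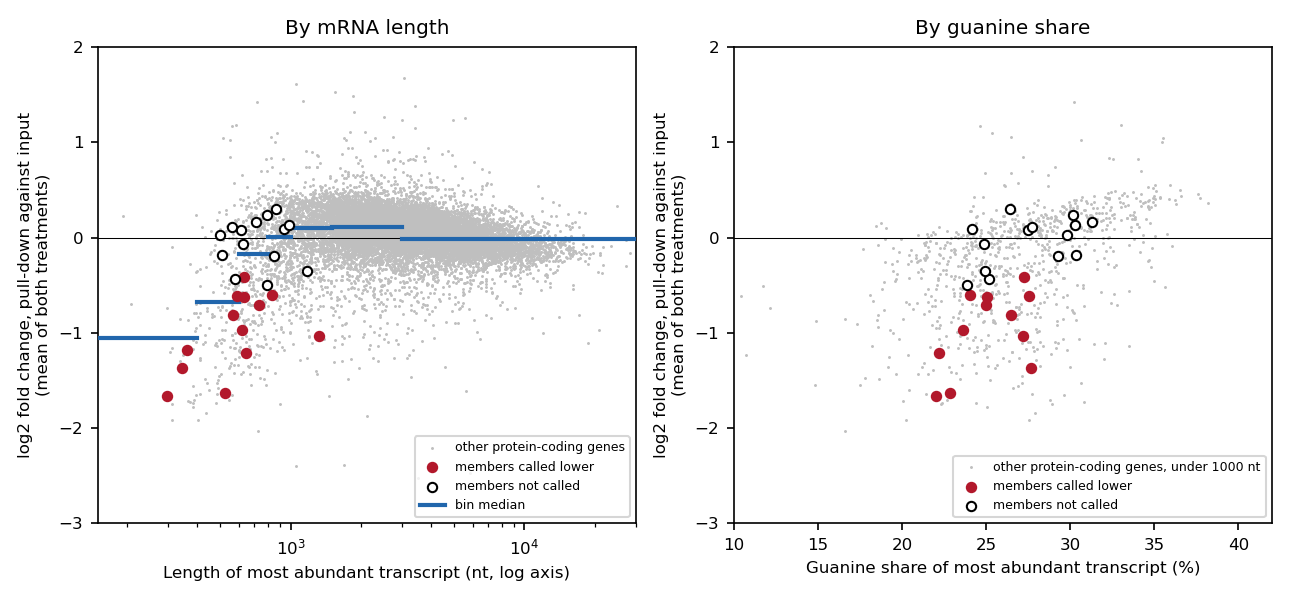
Mean log2 fold change of pull-down against input over both treatments (vertical axes) by length of the most abundant transcript (left, log axis) and by its guanine share (right); grey points are other protein-coding genes (under 1000 nt at right), blue lines the medians of the length bins, red points the 13 members called lower and open circles the other 14. All 3 members under 400 nt are red, and none of the 6 members at 28% guanine or more is.

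The coding starts of 3 members are printed as examples of a low and a high guanine share, picked after their values were seen from the 11 whose transcript has the same length in both annotations. Others of the 11 did not follow that order, since RPS27A, at 23.9%, and RPS23, at 25.2%, were not called and RPS10, at 27.6%, was called lower. RPS15A and RPS26 were called lower, and RPS19 was not. Each line holds the 150 bases from the start codon, 5′ to 3′ on the gene's strand, read from GENCODE 44 (GRCh38), with guanines in capitals and the genes at chr16:18781295-18790383 (minus strand), chr12:56041351-56044697 (plus) and chr19:41860255-41872925 (plus).
RPS15A: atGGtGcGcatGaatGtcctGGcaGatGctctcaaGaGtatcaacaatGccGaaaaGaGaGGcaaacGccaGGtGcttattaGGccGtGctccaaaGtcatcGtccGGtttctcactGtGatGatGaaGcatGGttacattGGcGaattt
RPS26: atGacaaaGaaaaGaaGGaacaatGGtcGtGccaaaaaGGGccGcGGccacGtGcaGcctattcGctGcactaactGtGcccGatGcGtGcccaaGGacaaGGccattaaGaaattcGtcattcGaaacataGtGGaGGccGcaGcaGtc
RPS19: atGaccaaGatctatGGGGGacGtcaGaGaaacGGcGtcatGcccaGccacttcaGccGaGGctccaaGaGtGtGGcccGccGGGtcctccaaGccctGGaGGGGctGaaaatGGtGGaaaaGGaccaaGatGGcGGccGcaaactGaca
These stretches held 40 guanines in RPS15A, 41 in RPS26 and 49 in RPS19. The whole transcripts had the same order, with 22.9%, 23.6% and 29.8% guanine.

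By transcript, 232 of the 261 listed transcripts of the members passed the filter. In each treatment 11 of the 232 were lower in the pull-down, the same 11, and they came from 8 genes, against 0.227% of all 67873 transcripts tested in clean air and 0.137% in formaldehyde. None was called higher by edgeR, while DESeq2 called 2 higher in clean air and 1 in formaldehyde. The median was -0.15 and -0.11, beside -0.01 in both treatments over all transcripts. The most abundant transcript held over 80% of the count in 18 of the 27 genes. The calls by transcript rested on the model: with edgeR on only the 4 libraries of a comparison or with the RNA pool as a block, 0 of the 232 passed in either treatment, whereas DESeq2 called 29 and 24 lower, and 52 and 47 had an unadjusted p under 0.05 in edgeR with all 8 libraries. With 1 library left out, whichever it was, at most 3 were called in clean air and at most 6 in formaldehyde.

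In RPS29 and RPS15A, given as examples, short and long transcripts of the gene had different ratios. The 296 nt transcript of RPS29 held 85.0% of the gene's count, with 14109 and 11887 before pull-down in clean air and 1781 and 1687 after it. The 7062 nt transcript held 8.27%, with 1089 and 864 before and 603 and 426 after. After scaling for library size, the log2 fold changes were -2.08 (SE 0.09) for the short transcript and -0.11 (SE 0.13) for the long one. In RPS15A, the log2 fold change in clean air was -1.92 (SE 0.09) for the 525 nt transcript, -1.04 (SE 0.10) for that of 2203 nt and 0.13 (SE 0.14) for that of 3828 nt. The 525 nt and 2203 nt transcripts passed the test (edgeR adjusted p = 0.00901 and 0.0282) and that of 3828 nt did not (adjusted p = 0.984). The difference between transcripts of a gene was not tested, and reads that fit several transcripts were divided by RSEM's estimate.

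RPS24 is known for alternative last exons that add or drop a few amino acids. Its 634 nt transcript (39.3% of the count) and its 553 nt transcript (39.2%) had log2 fold changes in clean air of -0.73 (SE 0.31) and -0.74 (SE 0.07), and of these only the 553 nt one passed the threshold (edgeR adjusted p = 0.733 and 0.0272). Of the 62 intron-retaining transcripts tested, from 24 genes, none was called lower by edgeR in either treatment, with medians of -0.14 and -0.11 and 6 in each treatment at an unadjusted p under 0.05. DESeq2 called 3 of them lower in clean air and 2 in formaldehyde. They took 5.25% to 5.53% of the members' counts in the inputs and 4.81% to 5.18% in the pull-downs.

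**Figure D4:**
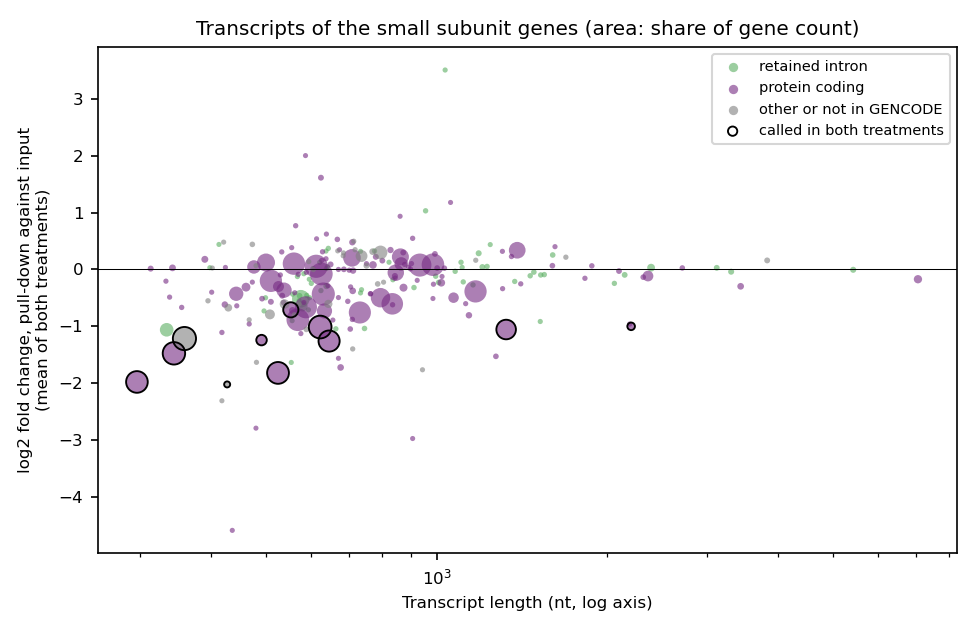
Mean log2 fold change of pull-down against input over both treatments (vertical axis) by transcript length (horizontal log axis) for the 232 tested transcripts of the members; area grows with the transcript's share of its gene's count, colour gives the annotated type and black rings mark the 11 transcripts called in both treatments. The rings lie at or below -0.71, 9 of them under 1000 nt, and the 7062 nt transcript of RPS29 at the right is close to 0.

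Introns of 7 members hold 14 annotated small nucleolar RNA genes on the same strand, and 2 of these hosts, RPS13 and RPS12, were lower in the pull-down while RPSA, RPS20, RPS3A, RPS2 and RPS3 were not. The nucleolar RNAs were counted as genes of their own. The 451 named pseudogenes of the members held 0.771% to 1.06% of the members' counts in a library, and RPS2 was the only member whose pseudogenes held more than 5% of its own count, at 13.4%. Reads shared with these copies were divided by estimate, so the count of RPS2 is uncertain to that extent.

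Other lists show where the members stood. Of 47 large subunit genes, 24 were lower in each treatment and none higher, with medians of -0.50 in both. Of 32 genes of the mitochondrial small subunit, which is built from separate nuclear genes for the ribosome inside mitochondria, 2 were lower in each treatment and none higher, with medians of 0.09 in both, while DESeq2 called 2 higher in clean air. Over all 18242 genes, DESeq2 called 101 higher in clean air. None of 30 factors that assemble the small subunit was called in either direction, with medians of 0.09 in clean air and 0.08 in formaldehyde and 6 and 4 genes at an unadjusted p under 0.05. None of 12 genes that control TOP mRNAs was called, LARP1 at 0.09 in clean air among them, with medians of 0.05 and -0.03 and 4 and 3 genes at an unadjusted p under 0.05, and DESeq2 called no gene of either list.

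In the inputs, the question was whether formaldehyde changed the level of these mRNAs. None of the 27 members was called in FA_IN against CA_IN by edgeR, nor by DESeq2, and 1 had an unadjusted p under 0.05 by each. Over all genes, 0.00548% were called by edgeR without a block. An unadjusted edgeR p under 0.05 was found for 3.35% of all genes, beside 3.70% of the members. With the replicate number as a block, 244 genes were called lower and 14 higher, none of them members. The members' log2 fold changes ran from -0.02 for RPS16 to 0.23 for RPS2, with a median of 0.13 beside 0.02 over all genes, and 26 of the 27 were above 0, where 53.4% of all genes were. The large subunit had a median of 0.13 as well, with 47 of 47 above 0. In bulk RNA, fewer cells of a kind and less of an mRNA per cell cannot be told apart. Standard errors of the members ran from 0.07 to 0.23, and with library sizes in place of TMM the members' median was 0.091 and that of all genes -0.021.

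RPS2, a protein at the entry of the mRNA channel, had 881 and 790 normalized CPM in CA_IN and 1008 and 956 in FA_IN. The groups did not overlap, and the log2 fold change of 0.23 (SE 0.09) had an unadjusted p of 0.0274 and an edgeR adjusted p of 0.945. RPS21 had 0.21 (SE 0.10) and RPS3 had 0.21 (SE 0.10), and RPS26 had 0.03 (SE 0.09), all with an edgeR adjusted p of at least 0.945.

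**Figure D5:**
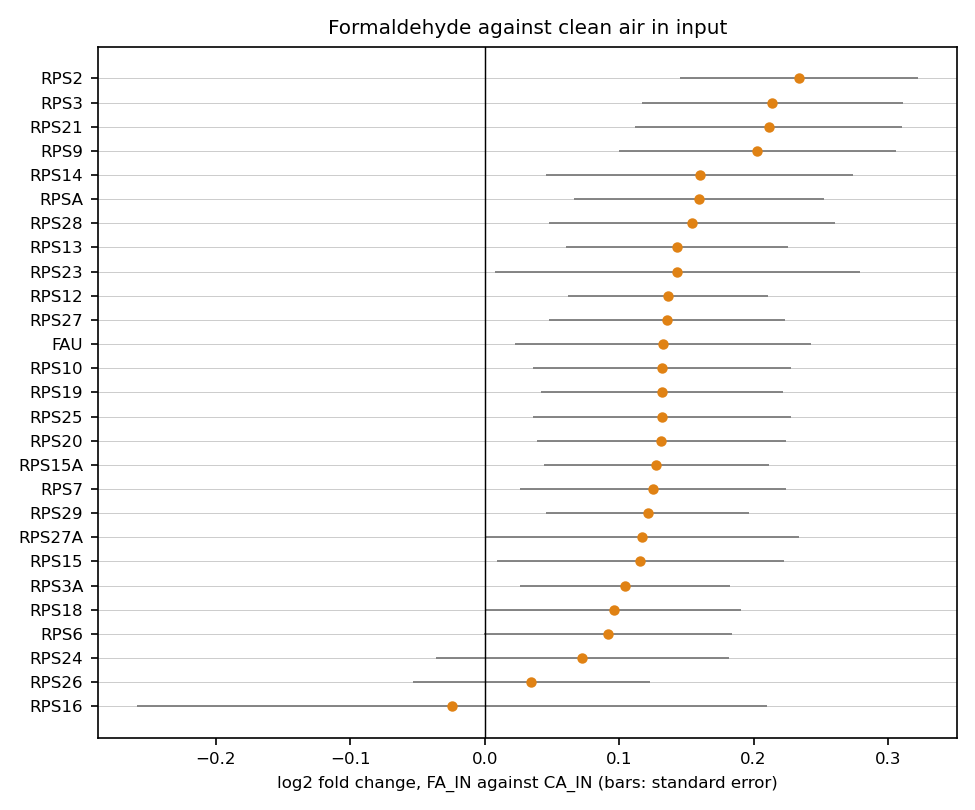
Log2 fold change of FA_IN against CA_IN (horizontal axis) for each member, ordered by value, with bars of 1 standard error. The points lie between -0.02 for RPS16 and 0.23 for RPS2, 26 of them above 0, and none passed the test.

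Whether formaldehyde altered the pull-down ratio was tested by the interaction of treatment and pull-down. None of the 27 members was called, none had an unadjusted p under 0.05 in edgeR or in DESeq2, and 0% of all genes were called by edgeR in the fit without a block. With the RNA pool as a block no member was called either, and over all genes 5 were called lower and 20 higher, while DESeq2 called 3 genes higher. The difference between the 2 treatments' log2 fold changes ran from -0.14 for RPS15 to 0.14 for RPS15A, with a median of -0.02, the same as over all genes. Side by side, the clean air and formaldehyde values were -1.70 and -1.62 for RPS29, -0.998 and -0.94 for RPS26, 0.07 and -0.02 for RPS19 and 0.32 and 0.28 for RPS6. Differences smaller than about 2 standard errors, which were 0.11 to 0.33 each, could not be resolved with 2 libraries a group.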

How the data were processed

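Expected counts per transcript, TPM and effective lengths were deposited by the authors for each library. Per the labels and methods, 75-base paired reads from a small RNA kit were trimmed with cutadapt, aligned to GRCh38 with STAR 2.6.0a in 2 passes and quantified with RSEM 1.2.25, with no strand option, so reads of antisense partners, paralogs and pseudogenes are divided by estimate. The authors' tables of DESeq2 fold changes were not used. Transcripts were summed by gene ID and rounded, and names came from GENCODE 44, which matched 58207 of 58735 IDs.

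Genes that reached 10 counts in 2 or more libraries were fitted in 1 model of the 4 groups with edgeR 4.0.16 (R 4.3.3), TMM scaling, quasi-likelihood tests and Benjamini-Hochberg adjustment over all 18242 genes, and transcripts likewise. The common dispersion was 0.019, a coefficient of variation of 0.138. Normalized CPM are counts over TMM-scaled library size. Standard errors were taken as the log2 fold change over the root of the F statistic. DESeq2 1.42.0 was the alternative tool. The code was tested on simulated counts. Fold sizes and signs were recovered, but an initial requirement on the share of changed genes called was not met and was dropped, most genes given a change about as small as those of RPS27A or RPS23 were not called, and in formaldehyde the share of false calls was above the nominal rate. With 2 libraries a group, the spread was estimated within all 4 groups over the 8 libraries and shared between genes. The p-values therefore do not measure the spread of the 2 compared groups alone, and without a block they include the spread between RNA pools.

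Input and pull-down were split from 1 RNA pool per replicate by the study's account, and replicate numbers 1 and 3 came from tags in the names of the deposited data, not from the titles. Deviations of input and pull-down in the same pool correlated at 0.55 in clean air and 0.41 in formaldehyde over genes. The pool therefore served as a block in an alternative fit, while the main fit had no block beyond the groups. Full values were given for members with the 3 highest and 3 lowest TPM in CA_IN, the 3 lowest and 3 highest pull-down ratios, any called in input or interaction, and RPS6, RPS27A, FAU, RPS24, RPS19, RPS26 and RPSA. Other members were named from their values. The members and lists were chosen with earlier results of these data known.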

Additional observations from a re-analysis of the deposited data

How the results depend on the processing

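The 13 members called lower in each treatment became 11 to 18 under every alternative that kept all libraries, and 7 to 13 with 1 library left out, where the lone library of a group was taken to vary like the others. Without CA_IN replicate 3 the clean air count was 8 and without CA_IP replicate 1 it was 7, and without FA_IN replicate 1, FA_IN replicate 3 or FA_IP replicate 1 the formaldehyde count was 7. RPS29, RPS15A, RPS21, RPS13, RPS27, RPS28 and RPS26 were called lower in both treatments under every alternative run. Members called higher, 0 in each treatment, were 2 in clean air and 1 in formaldehyde with library sizes in place of TMM, with the replicate block on the RNA pool and with the replicate block on the replicate number, and 0 with any library left out. The block on the replicate number called 16 members lower in each treatment, and over all 18242 genes it called 706 lower in clean air and 586 in formaldehyde. It called 1235 of all genes higher in clean air and 367 in formaldehyde. In input it called none of the members, with 244 genes lower and 14 higher over all genes, against 1 and 0 without it. Inputs of the same number correlated at 0.42 in their deviations, from 2 pairs. The study ran clean air and formaldehyde chambers in parallel, but whether a number marks 1 shared exposure run was not stated. The count of genes called in input depends on whether this block is used. Library sizes raised the median of all genes to 0.16 and 0.17 and called 821 genes higher and 336 lower in clean air, and 318 higher and 243 lower in formaldehyde. They moved the members' median from -0.45 to -0.28 in formaldehyde and from 0.13 to 0.091 in input. With a library left out, the median ran from -0.61 to -0.33 in clean air, from -0.59 to -0.36 in formaldehyde and from 0.11 to 0.14 in input.

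Transcripts called lower, 11 in each treatment, were 29 and 24 by DESeq2, 18 in clean air with no filter on low counts, 6 in formaldehyde with library sizes, 0 and 0 with only the 4 libraries of the comparison, 0 and 0 with the replicate block on the RNA pool, and 0 to 3 in clean air and 0 to 6 in formaldehyde with a library left out. The members' share of counts, 0.209 percentage points higher in input than in pull-down, was 0.597 over protein-coding genes, 0.161 to 0.255 with a library left out, and -0.654 over summed TPM, an alternative chosen after seeing the data. The correlation of ratio and length went from 0.40 to 0.027 with the longest transcript.

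Of 918 settings of single members, 822 kept direction and call, 48 lost the call, 34 gained it and 14 changed sign, none of these called. With library sizes the clean air values became 0.020 for FAU, 0.033 for RPS15 and 0.097 for RPS20, and in formaldehyde 0.077 for RPS20 and 0.15 for RPS19. With a library left out, the clean air values ran from -0.24 to 0.0042 for RPS15, -0.12 to 0.021 for RPS20, -0.0055 to 0.14 for RPS19 and -0.15 to 0.54 for RPS16, and those in formaldehyde from -0.072 to 0.063 for RPS19, -0.035 to 0.14 for RPS18 and -0.081 to 0.20 for RPS16. The causes were not tested.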
